A study of Mus musculus with 16 samples.

Results

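Clathrin-mediated endocytosis takes vesicle membrane back from the presynaptic surface after transmitter release. Adaptors gather cargo and recruit a coat of clathrin heavy and light chains, proteins with BAR domains bend the membrane, the GTPase dynamin cuts the neck of the pit, and the phosphatase synaptojanin helps to strip the coat. Several of these proteins have brain splice forms, of which the neuronal inserts of the clathrin light chains and the clathrin-binding exons of Bin1 are known examples.

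The genes described here are 10 components of this machinery, chosen by name: the clathrin light chain genes Clta and Cltb, the clathrin heavy chain gene Cltc, the adaptor gene Snap91 (AP180), the BAR domain genes Amph (amphiphysin), Bin1 (amphiphysin 2), Sh3gl2 (endophilin A1) and Pacsin1 (syndapin 1), the dynamin gene Dnm1 and the synaptojanin gene Synj1. They are 10 of 23724 genes with at least 1 read and hold 1249 of the 698596 isoforms with a read. All 10 had reads in every sample. Full-length transcripts were read by PacBio Iso-seq in cortex and striatum of 3-month-old male mice, with 4 samples in each of 4 groups: Cortex NT, Cortex R6/2, Striatum NT and Striatum R6/2. R6/2 mice carry a transgene with the first exon of human mutant HTT, the Huntington's disease gene, and so model an HTT fragment and not the full-length protein. NT mice are non-transgenic. All samples were left-hemisphere tissue, and by the study's methods the cohort held fewer males of a genotype than the 8 samples of both regions, so some mice gave both. Which samples share a mouse is not stated. The comparison of R6/2 with NT asked which of these transcripts differed with the transgene in each region, and the comparison of striatum with cortex in NT mice asked how the machinery differed between the regions without it.

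Cortical libraries held 252885 to 808814 reads. Striatal samples held 317050 to 811470 reads in the 4 with 1 file (replicates 3 and 4 of NT and replicates 1 and 4 of R6/2) and 917832 to 1496196 in the 4 with 2 files. Files are called runs here, but whether a second file is a second sequencing run of the same library or another library is not given. The isoforms of the samples with 2 runs were also longer (mean annotated length 2141 to 2225 nt, against 1618 to 1885 nt with 1 run and 1851 to 2100.1 nt in cortex). The number of runs was therefore a term in the striatal fits, and the fit over both regions set striatum against cortex at 1 run. Levels are CPM, the reads of a gene scaled to the TMM-adjusted total of gene reads of its sample. The TMM factor balances libraries of different composition and was computed over all 16 samples. Markers of striatal projection neurons summed to 10539 to 14453 CPM in Striatum NT and 392 to 490.2 CPM in Cortex NT, and markers of cortical excitatory neurons to 136 to 234 and 371 to 618 CPM, so each set was higher in the tissue it is named for. In R6/2 striatum the projection neuron markers summed to 1970.3 to 3418 CPM, and 7 of the 9 were lower by the test. In bulk tissue, fewer cells of a type and less RNA per cell cannot be told apart. Choroid plexus markers ranged from 55.3 to 9630.4 CPM among the Striatum NT samples.

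How much of each gene was read as a whole transcript limits what can be said of its splice forms. Reads were classed as complete when their splice chain matched an annotated transcript or was a new one, made of known splice sites (NIC) or with at least 1 new site (NNC), and as incomplete (ISM) when they held only part of an annotated chain. Of all reads over the 16 samples, 97.3% of those of Cltb, 96.9% of Clta, 91.6% of Sh3gl2, 88.6% of Bin1, 86.7% of Pacsin1 and 78.1% of Amph were complete. By contrast 21.5% of Dnm1 reads, 18.98% of Cltc, 16.99% of Snap91 and 11.6% of Synj1 were complete, which left 112, 126, 79 and 58 complete reads of these genes in all. The longest annotated isoforms with reads were 6519 nt for Cltc, 5356 nt for Snap91, 7012 nt for Synj1 and 3258 nt for Dnm1, while that of Clta was 1135 nt. For these 4 genes no splice form is described, apart from a Dnm1 exon, although Dnm1 and Cltc isoforms with enough reads entered the usage tests.

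**Figure D1:**
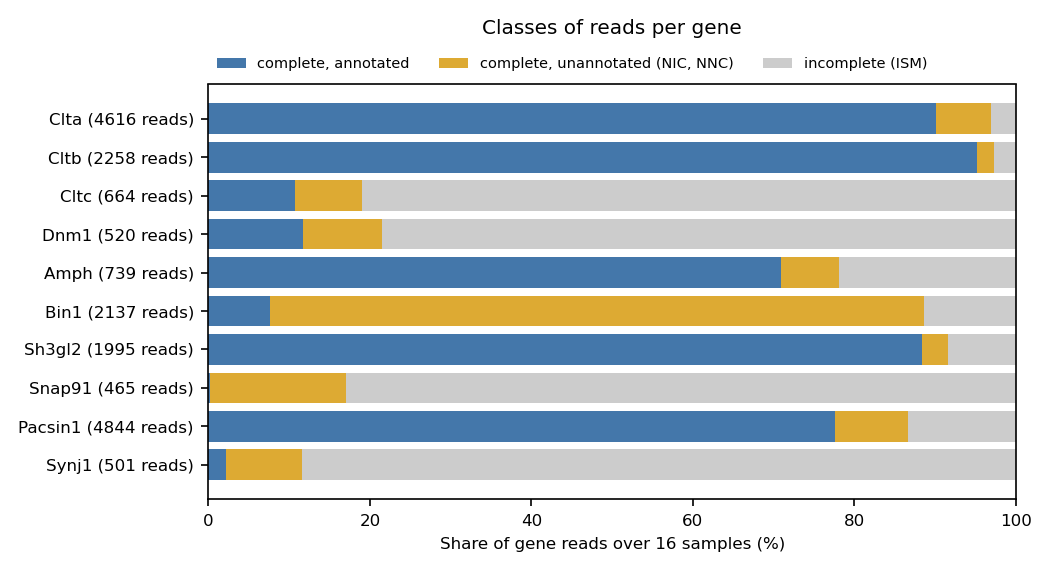
Share of the reads of each gene, in percent over all 16 samples, that were complete and annotated, complete and unannotated (NIC or NNC) or incomplete (ISM). The bars of Dnm1, Cltc, Snap91 and Synj1 are mostly incomplete reads, and most complete reads of Bin1 were unannotated.

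Among complete reads, the unannotated part was 2.14% for Cltb, 3.56% for Sh3gl2, 7.08% for Clta, 9.19% for Amph and 10.4% for Pacsin1, but 91.4% for Bin1. Nearly all complete Bin1 reads in these tissues thus had splice chains outside the annotation, and they are described by their number of exons and length. A read classed as complete need not be a whole transcript, since part of an unannotated chain could also be classed as new. No share of complete or unannotated reads differed between genotypes by an exact two-sided permutation test after Benjamini-Hochberg adjustment (lowest adjusted p = 0.556 over the genes). With 4 samples against 4, this test cannot give an unadjusted p below 0.0286 in cortex and, permuted within numbers of runs, 0.0556 in striatum. The nearest were the complete share of Cltc reads in cortex, with a mean of 3.27% in NT and 11.2% in R6/2 (exact permutation p = 0.0571), the unannotated share of complete Bin1 reads in cortex, 87.9% and 94.7% (exact permutation p = 0.0571), and the complete share of Pacsin1 reads in striatum, 85.5% and 89.9% (exact permutation p = 0.0556).

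The light chains were the most completely read members, and their neuronal inserts could be followed read by read. Clta (chr4:44004452-44032846, plus strand, mm10) has 2 cassette exons of 54 and 36 bases before its last exon, and Cltb (chr13:54592401-54611344, minus strand) has 1 of 54 bases at the matching place. All 3 are wholly coding in the annotation. The 54-base exons of both genes are shown because, of the light chain exons, their inclusion differed most between the regions. They are alike at 37 of 54 positions (68.5%), and capitals mark the 17 that differ. The Clta exon lies at chr4:44030215-44030268 on the plus strand and the Cltb exon at chr13:54597026-54597079 on the minus strand, both exon 5 of their transcript.
Clta 54-base exon: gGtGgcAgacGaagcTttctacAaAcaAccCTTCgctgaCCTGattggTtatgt
Cltb 54-base exon: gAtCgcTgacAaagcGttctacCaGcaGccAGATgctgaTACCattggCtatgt
The 36-base Clta exon, exon 6, lies at chr4:44031400-44031435 on the plus strand.
Clta 36-base exon: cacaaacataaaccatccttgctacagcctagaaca

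Most annotated light chain reads included these inserts, and the inserts of 54 bases were left out more often in striatum than in cortex. The Cltb insert was included in 86.8, 89.2, 86.0 and 88.5% of reads in the 4 Cortex NT samples (87.6% ± 1.44, SD, n = 4) and in 84.9, 87.2, 93.5 and 87.3% in Cortex R6/2 (88.2% ± 3.70). In striatum it was included in 82.0, 76.1, 69.3 and 76.5% of reads of NT samples (76.0% ± 5.20) and in 78.5, 73.2, 83.5 and 75.7% of reads of R6/2 samples (77.7% ± 4.43). Every striatal sample lay below every cortical one. The genotypes overlapped within each region. The 54-base Clta insert gave 85.5, 83.3, 90.7 and 86.0% in Cortex NT (86.4% ± 3.15) and 82.6, 87.5, 87.6 and 88.5% in Cortex R6/2 (86.5% ± 2.68). Its shares were 78.2, 74.0, 76.2 and 75.6% in Striatum NT (76.0% ± 1.73) and 77.5, 78.0, 76.3 and 74.2% in Striatum R6/2 (76.5% ± 1.69). Here too, no striatal value reached the lowest cortical one. For how many of all exons the regions separate in this way was not counted. The thinnest striatal sample, NT replicate 4, had 59 of 78 Clta reads and 26 of 34 Cltb reads with the insert, with 95% Wilson intervals of 65.1 to 83.8% and 60.0 to 87.6% for counting error alone.

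By edgeR's exon usage test on the 8 NT samples, 0 of the 3 light chain exons passed between striatum and cortex after Benjamini-Hochberg adjustment over all 801 exons tested, of which 3 (0.375%) did. The log2 odds ratio of inclusion, striatum over cortex, was −1.48 for Cltb (adjusted p = 0.43), the only exon of the 3 under an unadjusted p of 0.05, which 7.99% of all exons were, and −0.96 for the 54-base Clta exon (adjusted p = 0.63). In a fit over all 16 samples with genotype and runs as terms, added after these values were seen, the Cltb insert was lower in striatum (−1.32, adjusted p = 0.011) and so was the 54-base Clta insert (−0.99, adjusted p = 0.033), among 15 of 1245 exons (1.2%) called by edgeR. Samples of both regions entered as independent, although some share a mouse. Without Striatum NT replicate 3 the adjusted p of the Cltb exon was 0.17 and without Cortex R6/2 replicate 3 it was 0.069, and the Clta call held in 7 of the 16 fits that each left out 1 sample (log2 −1.08 to −0.92, adjusted p 0.012 to 0.13). Without the runs term the Clta exon missed the threshold (−0.95, adjusted p = 0.057). So it did with the replicate number as a block (−1.03, edgeR adjusted p = 0.063). The Cltb call held in both (edgeR adjusted p = 0.025 and 0.011). Marker sums of oligodendrocytes, cells of another type than those the neuronal inserts are named for, moved with the same contrast, at 13669 to 31603 CPM in Striatum NT and 3745 to 7579 CPM in Cortex NT, and 7 of the 8 markers were higher in striatum. Their part in the difference was not tested.

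The 36-base Clta exon was included in 80.8, 75.3, 87.04 and 82.7% of reads in Cortex NT (81.5% ± 4.86) and 72.0, 79.6, 73.0 and 76.9% in Cortex R6/2 (75.4% ± 3.53). In Striatum NT it was included in 77.01, 70.02, 74.8 and 73.1% (73.7% ± 2.94) and in Striatum R6/2 in 71.1, 72.8, 67.5 and 70.1% (70.4% ± 2.20). The groups overlapped in both contrasts, and neither the region difference over all 16 samples (log2 odds ratio −0.47, adjusted p = 0.58) nor the genotype difference in cortex (−0.51, adjusted p = 0.56) or striatum (−0.21) passed. No member exon differed between genotypes in cortex (0 of 4 tested, against 3 of 656 exons, 0.457%) or striatum (0 of 10, against 19 of 983, 1.93%) by edgeR after adjustment, and 0 had an unadjusted p under 0.05, as 10.7% of all exons had in cortex and 11.3% in striatum. These striatal tests were not all separate. The Bin1 exons rested on the same reads (64 with and 5 without in NT, 38 and 7 in R6/2), and the 139-base Dnm1 exons mirrored each other. For Bin1 only annotated reads entered, 163 of its 1894 complete reads. The largest value was that of a 37-base Dnm1 exon in striatum, with a log2 odds ratio of 3.57 from only 1 of 8 reads with the exon in NT and 20 of 29 in R6/2 (adjusted p = 0.45). In the fit over all 16 samples no member exon was called for genotype either, where 29 of 1245 exons (2.33%) were, and 10 without the runs term.

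**Figure D2:**
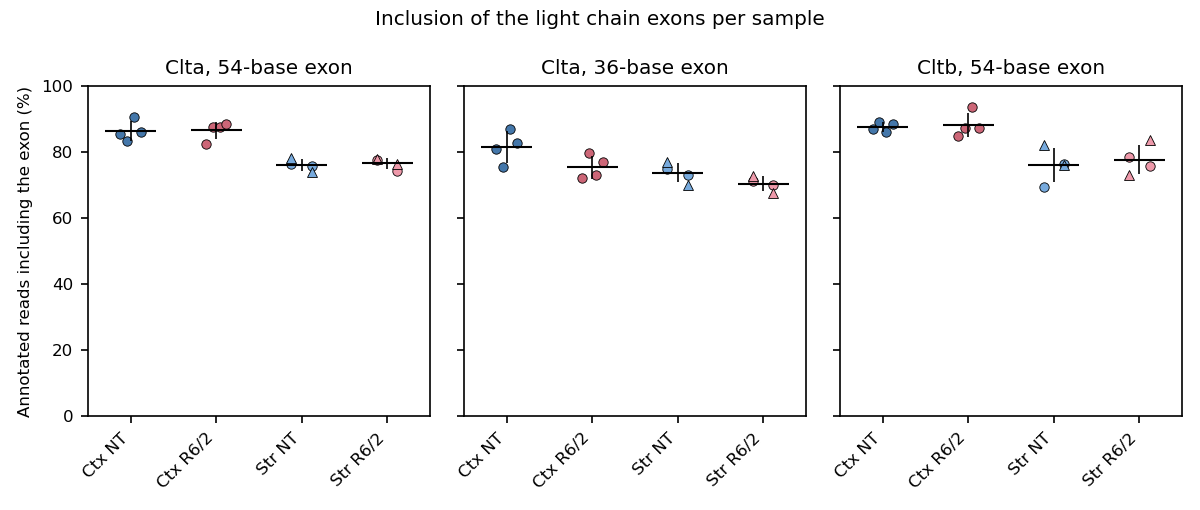
Inclusion of the 3 light chain exons, in percent of annotated reads of the gene, in each sample of the 4 groups (points, circles for 1 run and triangles for 2 runs) with the mean and SD (line and bar). The 54-base inserts of Clta and Cltb average 86.4 and 87.6% in Cortex NT and 76.0% each in Striatum NT, with genotypes overlapping in both regions.

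Seen as whole isoforms, the forms of both genes without an insert held a larger share in striatum. The 7-exon Clta isoform with both inserts (1135 nt) was 71.0% of complete reads in Cortex NT, 67.7% in Cortex R6/2, 61.0% in Striatum NT and 58.9% in Striatum R6/2. The 5-exon form without either insert made up 5.91, 10.4, 3.45 and 7.46% in Cortex NT (6.80% ± 2.90) and 11.99, 7.74, 8.47 and 7.72% in Cortex R6/2 (8.98% ± 2.03). It reached 12.5, 15.5, 15.6 and 17.4% in Striatum NT (15.3% ± 2.01) and 14.8, 12.3, 16.1 and 17.5% in Striatum R6/2 (15.2% ± 2.18). All 8 striatal samples were above all 8 cortical ones, and how many of all isoforms separate in this way was not counted. Forms with only 1 insert were less common than the 7-exon form, with group means of 7.92 to 13.8% for the 54-base insert alone and 3.32 to 5.84% for the 36-base insert alone. The 5-exon Cltb isoform without its insert (2186 nt, longer because of its last exon) was 12.1% in Cortex NT, 11.4% in Cortex R6/2, 22.5% in Striatum NT and 21.5% in Striatum R6/2.

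In NT samples neither light chain gene was called for a regional difference in isoform usage, against 5 of 3698 genes (0.135%) called by edgeR, although both were under an unadjusted p of 0.05, as 5.6% of all genes were (Clta adjusted p = 0.80, Cltb 0.89). No isoform of either was called there (11 of 10618 isoforms, 0.104%, were), and the insert-free Clta form differed by 1.26 (edgeR adjusted p = 0.48) and was under an unadjusted p of 0.05, as 5.01% of isoforms were. Over all 16 samples, in the fit added later, the insert-free Clta isoform was higher in striatum by 1.05 on the log2 scale relative to the gene (edgeR adjusted p = 0.014, with 113 of 19279 isoforms, 0.586%, called), and Clta was called as a gene (adjusted p = 0.041, with 85 of 5653 genes, 1.5%, called). The call of the isoform was kept in 11 of 16 fits with 1 sample left out and was lost without Striatum NT 3 (0.077), Striatum NT 4 (0.071), Striatum R6/2 1 (0.064), Striatum R6/2 4 (0.13) or Cortex R6/2 2 (0.056), and without the runs term (0.95, 0.096). The Cltb isoform without the insert differed by 1.07 and missed the threshold (adjusted p = 0.053).

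Levels of the coat genes as a whole differed little between genotypes. Clta was read at 730.4, 565, 611 and 486 CPM in Cortex NT (598 ± 102) and 679.9, 637, 646 and 615 CPM in Cortex R6/2 (644 ± 27.0). It was lower in striatum, at 386, 402, 378 and 487 CPM in NT (413 ± 50.05) and 515, 397, 363 and 547 CPM in R6/2 (456 ± 89.3), and the NT samples of the 2 regions touched at 486 and 487 CPM. Cltb averaged 264 ± 60.1 and 254 ± 30.9 CPM in Cortex NT and R6/2 and 227 ± 30.9 and 229 ± 30.1 CPM in Striatum NT and R6/2. Cltc, the heavy chain, averaged 61.7 ± 14.6, 59.8 ± 5.83, 69.99 ± 19.6 and 75.4 ± 22.2 CPM in the same order. None of the 3 passed the test of genotype or region (edgeR, genotype log2 fold changes −0.04 to 0.13, and region −0.38 for Clta at adjusted p = 0.14, −0.24 for Cltb and −0.13 for Cltc). With the mean isoform length of each sample as a term, Clta was called lower in striatum (−0.75, edgeR adjusted p = 0.016). The share of light chain reads that came from Clta was 69.5% ± 2.79 in Cortex NT, 71.8% ± 2.31 in Cortex R6/2, 64.5% ± 4.51 in Striatum NT and 66.3% ± 3.44 in Striatum R6/2. Snap91, the synaptic adaptor that links clathrin to membrane lipids, was at 28.2, 74.6, 102 and 70.6 CPM in Cortex NT (68.8 ± 30.4), 51.8 ± 9.29 CPM in Cortex R6/2, 44.2 ± 4.97 CPM in Striatum NT and 44.8 ± 13.1 CPM in Striatum R6/2. Its region difference of −0.73 missed the threshold (edgeR adjusted p = 0.093) and passed it without Cortex NT replicate 1, the lowest cortical sample (−0.76, adjusted p = 0.044).

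Bin1 (chr18:32377230-32435737, plus strand, mm10) was the member whose level differed with genotype in cortex. Its protein is an amphiphysin that binds clathrin and the adaptor complex AP2 in its neuronal forms and shapes membranes in glia and muscle in its shorter forms. It was read at 211, 224, 249 and 219.8 CPM in Cortex NT (226 ± 16.3) and at 124, 138, 153 and 154 CPM in Cortex R6/2 (142 ± 14.1). All 4 R6/2 samples were below all 4 NT samples, and Bin1 was the only one of the 10 genes for which the groups did not overlap, as they did not for 10.1% of all genes tested. The log2 fold change was −0.64 (SE 0.17, 95% interval −0.97 to −0.31, edgeR adjusted p = 0.037). In Striatum NT it was read at 316, 338, 195 and 218 CPM (267 ± 70.7) and in Striatum R6/2 at 191, 237, 280.3 and 189 CPM (224 ± 43.4). The striatal groups overlapped, with a log2 fold change of −0.25 (SE 0.15, adjusted p = 0.43). The test of the difference between the regions' effects gave 0.42 (SE 0.21, edgeR adjusted p = 0.85), so a difference between the regions was not shown. The cortical call held in 10 of 18 other settings, with fold changes of −0.76 to −0.58 and adjusted p of 0.013 to 0.18. Without single samples it was lost for Cortex NT 2 (0.096), NT 4 (0.083), R6/2 1 (0.12), R6/2 2 (0.14), R6/2 3 (0.096) and R6/2 4 (0.080). Oligodendrocyte markers summed to 3745 to 7579 CPM in Cortex NT and 3755 to 5928 CPM in Cortex R6/2, with 0 of 8 called by edgeR, 1 by DESeq2, 4 under an unadjusted p of 0.05 and a median log2 fold change of −0.42. Astrocyte markers summed to 2295 to 3633 and 1344 to 1833 CPM, with 1 of 6 called, 5 under an unadjusted p of 0.05 and a median log2 fold change of −0.60. Cortical excitatory neuron markers summed to 371 to 618 and 307 to 384 CPM, with 1 of the 4 tested called, 2 under an unadjusted p of 0.05 and a median of −0.61. General neuronal markers summed to 2549 to 4701 and 3507 to 3872 CPM, with 0 of 6 called, 2 under an unadjusted p of 0.05 and a median of −0.0043. The part of any of these cell types in the Bin1 difference was not tested.

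A long form of Bin1 held a larger share of the gene's reads in R6/2 than in NT samples of both regions, a difference that was called only over all 16 samples together. An unannotated isoform of 18 exons and 2343 nt, 1 exon and 108 bases short of the annotated 19-exon transcript of 2451 nt, made up 23.0, 18.5, 26.2 and 21.5% of complete Bin1 reads in Cortex NT (22.3% ± 3.19). In Cortex R6/2 it made up 40, 36.2, 43.0 and 36% (38.8% ± 3.36). In striatum it made up 18.6, 9.19, 15.1 and 8.33% in NT (12.8% ± 4.89) and 18.97, 29.7, 28.8 and 24.6% in R6/2 (25.5% ± 4.90). In both regions every R6/2 sample was above every NT sample, by a narrow margin in striatum. The share of all isoforms whose genotypes separate in this way was not counted, so the separation has no background beside it. For an unannotated form of 13 exons and 1917 nt the means lay the other way, with 27.9, 38.3, 26.2 and 32.3% in Cortex NT (31.1% ± 5.39) and 24.4, 25.5, 19.4 and 28.0% in Cortex R6/2 (24.3% ± 3.64). In Striatum NT it was the main form, at 42.9, 49.9, 42.5 and 55.6% (47.7% ± 6.24), and in Striatum R6/2 it was at 34.5, 27.7, 30 and 33.8% (31.5% ± 3.21). The 13-exon form overlapped between genotypes in cortex and not in striatum, again without a count over all isoforms. The annotated 19-exon form averaged 11.4% ± 5.05 in Cortex NT and 5.33% ± 2.19 in Cortex R6/2, and its log2 difference relative to the gene in striatum was −0.45. An unannotated form of 14 exons and 1989 nt averaged 16.8% (1 run) and 14.3% (2 runs) in Striatum NT and 25.0% and 18.4% in Striatum R6/2. Its log2 difference was 0.46 in striatum and −0.36 in cortex.

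Within a region none of these shifts passed the adjusted threshold. For the 18-exon form the log2 difference relative to the gene was 0.87 in cortex (edgeR adjusted p = 0.50, with 17 of 8401 isoforms, 0.202%, called) and 0.98 in striatum (adjusted p = 0.18, with 39 of 13631, 0.286%, called), and both were under an unadjusted p of 0.05, which 4.93% and 5.78% of all isoforms were. At the level of genes, 0 members were called in cortex (against 11 of 3060 genes, 0.359%) or striatum (against 19 of 4443, 0.428%) by edgeR, with Bin1 under an unadjusted p of 0.05 in cortex, as 5.49% of all genes were, and Bin1 and Pacsin1 in striatum, as 6.66% were. In the fit over all 16 samples, added after these values were seen, the 18-exon form was higher in R6/2 by 0.93 (edgeR adjusted p = 0.014, with 99 of 19279 isoforms, 0.514%, called), and Bin1 was called as a gene (adjusted p = 0.039, with 59 of 5653 genes, 1.04%, called, and 17 without the runs term). This fit counts samples of both regions as independent, although some share a mouse, so its p-values may be too small. Left out 1 at a time, samples moved the value of the 18-exon form between 0.77 and 1.05 and kept its call in 11 of 16 fits. The call of this form was lost without Striatum NT 2 (0.115), Striatum R6/2 2 (0.059), Striatum R6/2 3 (0.052), Cortex NT 2 (0.055) and Cortex R6/2 3 (0.055), and without the runs term (0.21). The 13-exon form differed by −0.48 in that fit (adjusted p = 0.52). In the region contrast of NT samples the 18-exon form was at −0.78 in striatum relative to cortex (edgeR adjusted p = 1). Since the cortical level of Bin1 was lower in R6/2 while the 18-exon share was higher, the mean level and the mean share moved in opposite directions there. Oligodendrocyte marker sums, given above for cortex and for Striatum NT, were 13539.7 to 20179 CPM in Striatum R6/2, with 2 of 8 lower, and whether they bear on the shares was not tested.

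**Figure D3:**
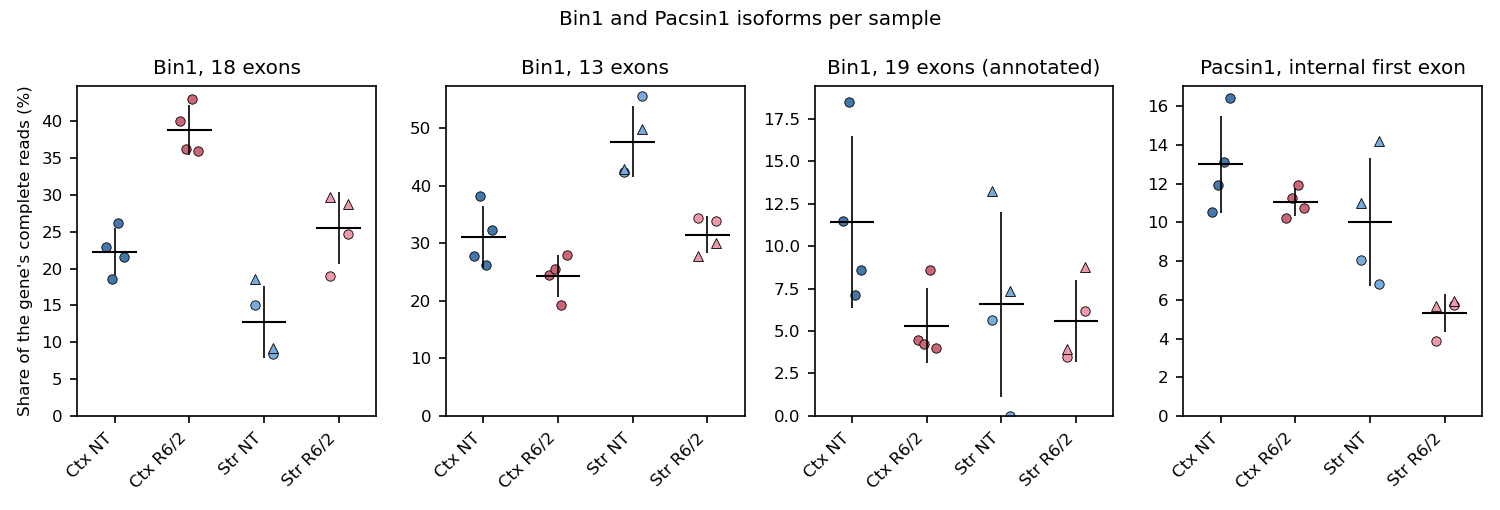
Share of complete reads of the gene, in percent, for the Bin1 isoforms of 18, 13 and 19 exons and the Pacsin1 isoform with an internal first exon, in each sample of the 4 groups (circles 1 run, triangles 2 runs, line and bar the mean and SD). The 18-exon Bin1 form averages 22.3 and 38.8% in Cortex NT and R6/2 and 12.8 and 25.5% in Striatum NT and R6/2, without overlap between genotypes. For how many of all isoforms this holds was not counted.

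Pacsin1 (chr17:27655509-27711482, plus strand), a neuronal F-BAR protein that joins dynamin to the actin machinery, was the most deeply read member with 4844 reads in all. It was at 911, 858, 580.0 and 831 CPM in Cortex NT (795 ± 147) and at 512, 628, 605 and 641 CPM in Cortex R6/2 (597 ± 58.5), a log2 fold change of −0.41 that did not pass (edgeR adjusted p = 0.29). In Striatum NT it was at 562, 552, 379 and 269 CPM (441 ± 142) and in Striatum R6/2 at 303, 375, 343 and 255 CPM (319 ± 51.6). The striatal fold change was −0.46 (edgeR adjusted p = 0.17), −0.23 within samples of 1 run and −0.66 within those of 2 runs, and it passed without Striatum NT 4 (−0.58, adjusted p = 0.034). Genotypes overlapped in both regions, with the lowest NT sample below the highest R6/2 one. Between regions, every Striatum NT sample was below every Cortex NT sample, which held for Pacsin1 alone of the 10 genes (16.1% of all genes did not overlap, in either direction), and Pacsin1 was lower in striatum (log2 fold change −1.17, SE 0.21, edgeR adjusted p = 1.6e-04).

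An annotated Pacsin1 isoform that starts at an internal first exon (1800 nt) had lower values in R6/2 striatum, without passing the test. It made up 11.03, 14.2, 8.06 and 6.82% of complete Pacsin1 reads in Striatum NT (10.0% ± 3.29) and 3.87, 5.66, 5.96 and 5.75% in Striatum R6/2 (5.31% ± 0.969). The groups did not overlap, which was not counted over all isoforms, and the log2 difference relative to the gene was −1.09 (edgeR adjusted p = 0.18). In cortex it made up 10.5, 11.9, 13.1 and 16.4% in NT (13.01% ± 2.51) and 10.2, 11.2, 11.9 and 10.8% in R6/2 (11.04% ± 0.727), which overlapped. Over all 16 samples the genotype difference was −0.69 (adjusted p = 0.22). The main Pacsin1 isoform of 4190 nt held 42.0, 43.5, 48.7 and 48.7% of complete reads in Cortex NT, Cortex R6/2, Striatum NT and Striatum R6/2.

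The other curvature genes did not differ with genotype. Sh3gl2, whose endophilin protein recruits synaptojanin and dynamin to the pit, was at 274, 366, 204 and 500.0 CPM in Cortex NT (336 ± 128) and 233, 253, 298 and 312 CPM in Cortex R6/2 (274 ± 37.2). It was at 236, 127, 112 and 76.0 CPM in Striatum NT (138 ± 68.7) and 89.4, 212, 167 and 98.1 CPM in Striatum R6/2 (142 ± 58.4). Genotypes overlapped in both regions (log2 fold changes −0.31, adjusted p = 0.53, and 0.00). Sh3gl2 was lower in striatum than in cortex of NT mice (log2 fold change −1.85, SE 0.28, edgeR adjusted p = 2.6e-05), with Striatum NT 1 above the lowest cortical sample. Nearly all of its complete reads were of 1 annotated isoform, with group means of 94.5 to 98.3%. Amph averaged 69.1 ± 35.3, 71.4 ± 18.2, 64.4 ± 36.5 and 84.7 ± 37.3 CPM in Cortex NT, Cortex R6/2, Striatum NT and Striatum R6/2, with Cortex NT samples from 30.5 to 101 CPM, and no test of it passed (cortex −0.07, striatum 0.29 at adjusted p = 0.64, region −0.67 at adjusted p = 0.17, edgeR).

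Amph (chr13:18948205-19150921, plus strand) was read mainly as a pair of annotated isoforms of 3224 and 3195 nt. The longer made up 40.3, 49.9, 55.7 and 53.2% of complete reads in Cortex NT, Cortex R6/2, Striatum NT and Striatum R6/2, and the shorter 33.5, 30.3, 36.3 and 35.5%. They differ in coding sequence at the end of exon 16 (chr13:19121275-19121331, plus strand, 57 bases), which is shown because the 2 forms split most Amph reads between them. Capitals mark the last 12 bases, absent from the form that ends the exon earlier.
Amph exon 16: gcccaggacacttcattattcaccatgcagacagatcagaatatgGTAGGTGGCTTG

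Fission and uncoating were represented by Dnm1 and Synj1, both lower in striatum. Dnm1 (chr2:32308471-32353338, minus strand), the neuronal dynamin, was at 158, 102, 35.6 and 135 CPM in Cortex NT (108 ± 53.2) and 51.6, 89.2, 89.6 and 81.7 CPM in Cortex R6/2 (77.99 ± 17.99). It was at 34.2, 21.1, 26.3 and 40.5 CPM in Striatum NT (30.5 ± 8.58) and 19.7, 30.3, 57.3 and 22.1 CPM in Striatum R6/2 (32.4 ± 17.3). Genotypes overlapped in both regions (log2 fold change −0.53 at adjusted p = 0.34 in cortex and 0.26 at 0.77 in striatum, edgeR), with a single low NT sample in cortex, which also lay within the Striatum NT range. Between regions of NT mice the log2 fold change was −2.32 (SE 0.42, edgeR adjusted p = 1.6e-04). Of the reads of the 3 dynamin genes Dnm1, Dnm2 and Dnm3, Dnm1 held 41.2% ± 10.2 in Cortex NT, 34.5% ± 5.22 in Cortex R6/2, 13.5% ± 2.14 in Striatum NT and 16.3% ± 9.49 in Striatum R6/2. Synj1 (chr16:90936092-91011308, minus strand) was at 45.1, 72.3, 56.0 and 103 CPM in Cortex NT (69.1 ± 25.1) and 71.1 ± 5.81 CPM in Cortex R6/2, against 51.3, 45.4, 34.5 and 25.3 CPM in Striatum NT (39.1 ± 11.5) and 37.6 ± 16.1 CPM in Striatum R6/2. Its region difference was −1.16 (SE 0.32, edgeR adjusted p = 0.0068), with Cortex NT 1 inside the striatal range, and it fell short without Cortex NT 4 (−0.66, adjusted p = 0.14).

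**Figure D4:**
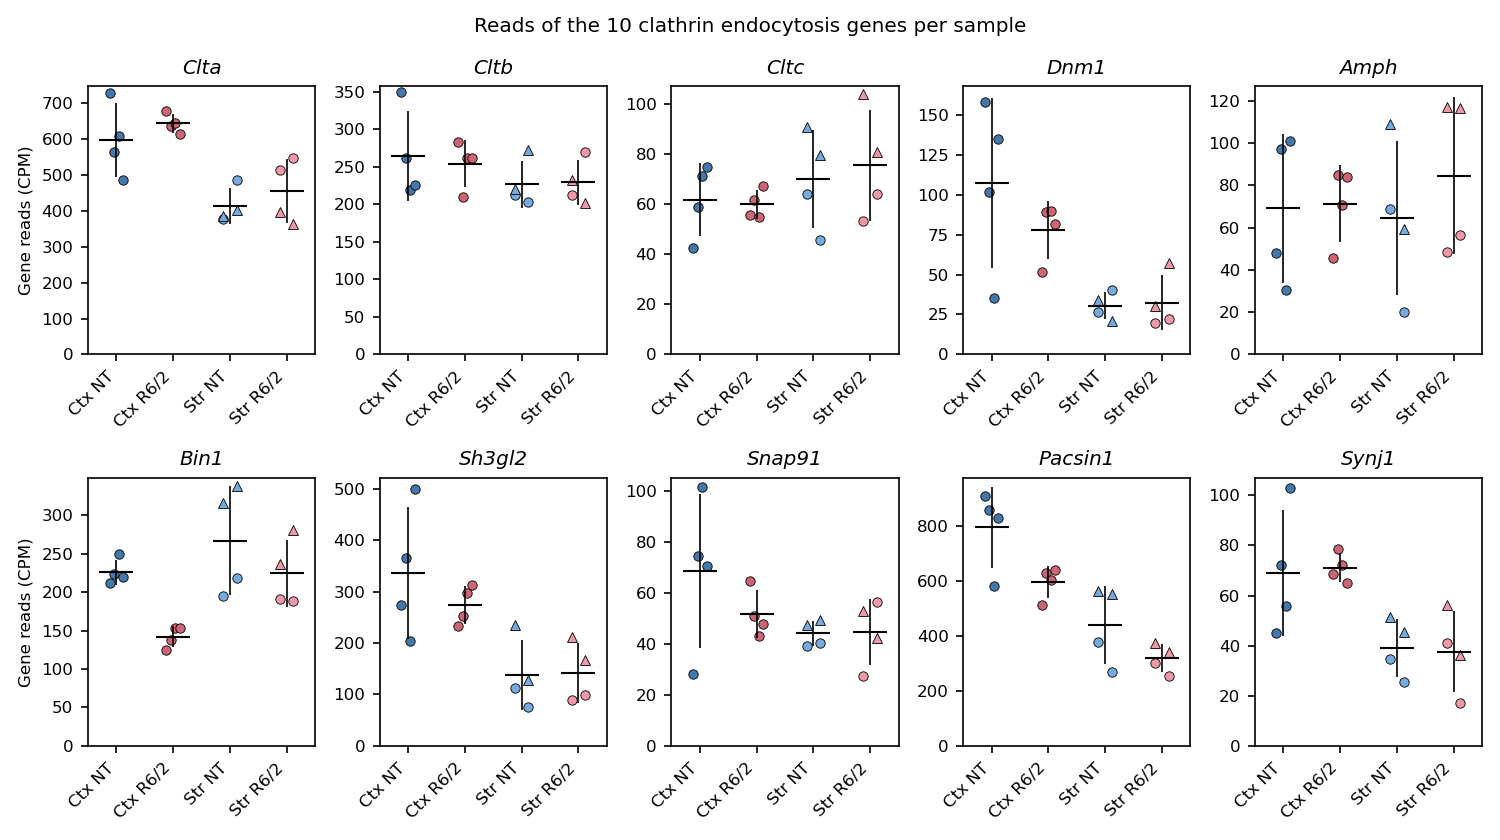
Level of each of the 10 genes in CPM (reads scaled to the TMM-adjusted total of the sample) in each sample of the 4 groups, with circles for samples of 1 run and triangles for samples of 2 runs, and a line and bar for the mean and SD. Bin1 in cortex, at 211 to 249 and 124 to 154 CPM, is the 1 case in which NT and R6/2 of a region do not overlap, as they do not for 10.1% of all genes in cortex and 6.08% in striatum.

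Over the 10 genes, Dnm1, Sh3gl2, Pacsin1 and Synj1 were lower in Striatum NT than in Cortex NT and none was higher. That is 4 of 10, in a comparison in which 2470 of 7360 genes (33.6%) were called, 17.8% of all genes lower and 15.8% higher. DESeq2 also called 4 of the 10. The median log2 fold change was −0.70 over the 10 genes and −0.12 over all genes, and all 10 values were negative in this fit. In other settings the value was positive in 9 of 28 for Bin1, 6 of 27 for Cltc, 2 of 28 for Cltb and 1 of 28 for Amph. The mean CPM of Bin1 and Cltc, not set at 1 run, was higher in Striatum NT than in Cortex NT. Of the 4 calls, those of Dnm1 and Sh3gl2 held in every setting that gave a value (27 and 28) and that of Pacsin1 in 27 of 28, the exception being the first run of each sample alone (−0.70, adjusted p = 0.072). The Synj1 call held in 23 of 27 and was also lost with the mean isoform length of each sample as a term (−0.59, adjusted p = 0.34), without the runs term (−0.78, 0.099) and with the first run alone (−0.74, 0.11). The order at 1 run in the fit was thus Dnm1, Sh3gl2, Pacsin1, Synj1, Snap91, Amph, Clta, Cltb, Cltc and Bin1 (−0.07), from the largest difference to the smallest, and neighbours in this order were not tested against each other.

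Between genotypes in cortex, 1 of 10 genes (Bin1) was called, in a comparison in which 198 of 6128 genes (3.23%) were, most of them lower (2.77%) rather than higher (0.457%). DESeq2 called the same 1. The median over the 10 genes was −0.19, against 0.015 over all genes, and only Clta was above 0. In striatum edgeR and DESeq2 called 0 of 10, with 1 (Pacsin1) at an unadjusted p under 0.05, where edgeR called 332 of 7694 genes (4.32%), 3.82% lower and 0.494% higher. The median was −0.0063 over the 10 genes and −0.0015 over all genes. No member differed between regions in its genotype effect (0 of 10 by edgeR and by DESeq2, 0 under an unadjusted p of 0.05, where edgeR called 3 of 7360 genes, 0.0408%, with 0.0272% higher and 0.0136% lower).

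**Figure D5:**
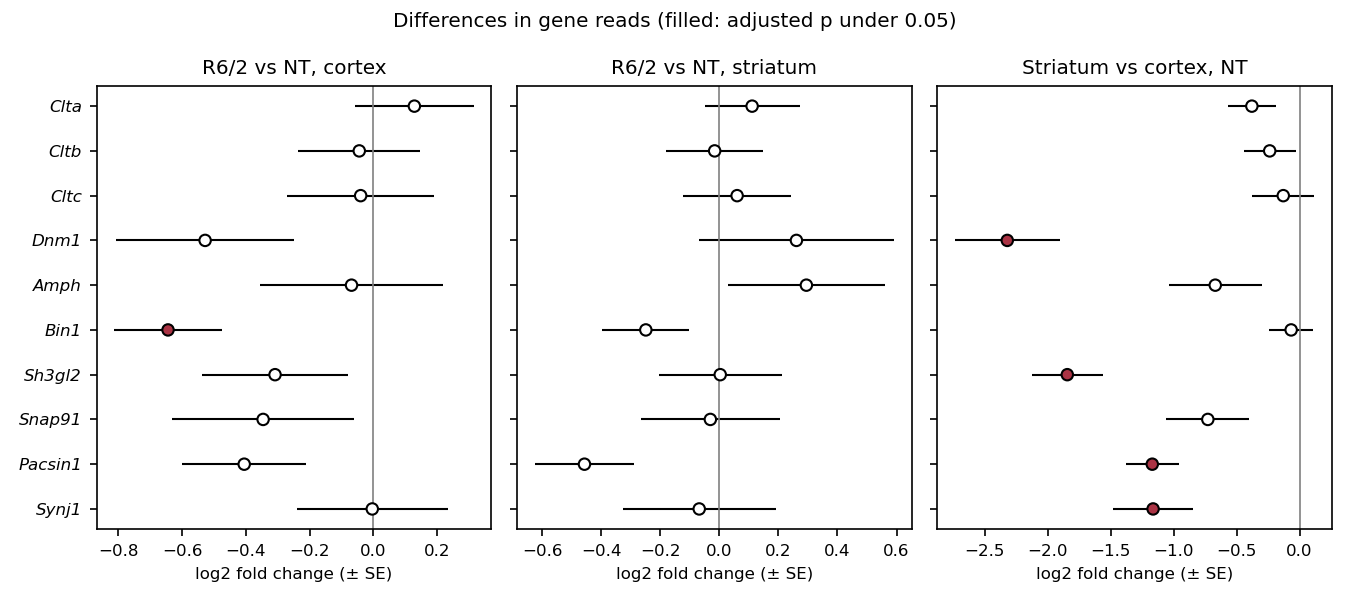
Log2 fold change with its SE for each of the 10 genes in 3 comparisons, R6/2 against NT in cortex and in striatum and striatum against cortex in NT mice; filled points had an adjusted p under 0.05. Only Bin1 is filled in cortex (−0.64) and none in striatum, while Dnm1 (−2.32), Sh3gl2 (−1.85), Pacsin1 (−1.17) and Synj1 (−1.16) are filled between regions.

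Of 50 further genes of the pathway, the AP2 subunits, early-acting adaptors and scaffolds, uncoating factors and the paralogs of the members, 30 passed the read filter in cortex, 34 in striatum and 33 in the fit over both regions. With genotype, edgeR and DESeq2 called 0 of them in cortex, with 5 under an unadjusted p of 0.05, and 0 in striatum, also with 5. The closest was Pacsin3, a paralog of Pacsin1, in cortex (log2 fold change −1.06, adjusted p = 0.0503). Between the regions of NT mice edgeR called 8 of 33, 6 higher and 2 lower in striatum, beside the 33.6% of all genes. They included the mitochondrial and peroxisomal dynamin-related gene Dnm1l (1.12, adjusted p = 0.0011), the AP2 subunit Ap2b1 (1.02, adjusted p = 0.019) and the phosphatase Inpp5f (0.86, adjusted p = 0.024), all higher, with Pacsin3 (−1.42, adjusted p = 0.0041) and Dnajc6, the neuronal auxilin that uncoats vesicles (−1.08, adjusted p = 0.028), lower. The median of the list was −0.10 in that contrast, −0.033 by genotype in cortex and −0.043 in striatum. General neuronal markers summed to 2549 to 4701 CPM in Cortex NT and 2715 to 5052 CPM in Striatum NT, with 2 of 6 lower in striatum by the test, and their part in the region differences was not tested.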

How the data were processed

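Poly(A) RNA, prepared after exonuclease treatment of total RNA, was made into PCR-amplified cDNA and read by PacBio Iso-seq without molecular identifiers. The Wilson intervals thus cover counting error only. The interval of the Bin1 fold change came from the SE of the edgeR fit, which holds the spread between samples. It used a normal approximation and may be too narrow with 4 samples in a group. The authors mapped reads to mm10 with minimap2 (2.17-r941), corrected them with TranscriptClean and deposited raw TALON counts per isoform, not filtered and not normalized. The 16 samples were grouped by their labels; 4 striatal samples had 2 files, which were summed as 1 sample. Replicates are separate samples by their labels. Gene counts were sums of known, ISM, NIC and NNC isoforms, without the genomic class. Genes were tested with edgeR 4.0.16 (quasi-likelihood, TMM, filterByExpr, Benjamini-Hochberg, threshold 0.05) within each region (in striatum with a runs term) and over all 16 samples for region and interaction. Isoform usage (at least 10 reads) and annotated cassette exons (at least 10 reads of each form) were tested with diffSpliceDGE, all features in the fit, and shares by exact two-sided permutation. Exon structures and sequences came from the GENCODE M21 transcripts of mm10, in which 35492 of 35640 known isoforms were found. Isoforms were named from 5% of a gene's complete reads in a region, but not every isoform above it is described. Other pathway genes were named as the up to 5 largest changes called. Alternatives were DESeq2 1.42.0, other normalizations and filters, other read classes, a length term (the mean isoform length of each sample), the first run alone, runs apart, a replicate block and each sample left out. Scripts were tested on simulated data. The genes, lists and tests were chosen with earlier results of these data known, and the 16-sample fits of isoforms and exons, with their alternatives, were added after seeing the data.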

Additional observations from a re-analysis of the deposited data

Results flagged for a closer look

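Among 96 groups of 4 values checked, 5 held a sample whose gap to the nearest other one was above Dixon's 95% critical value for the group's range, and chance flags about 1 in 20 groups. The 54-base Clta exon was included in 82.6% of reads of Cortex R6/2 replicate 1, against 87.5 to 88.5% in the other samples of its group. The annotated 19-exon Bin1 isoform (ENSMUST00000025239) was 8.60% of complete reads in Cortex R6/2 replicate 3, against 4 to 4.44%. The Pacsin1 isoform with the internal first exon (ENSMUST00000097360) was 3.87% in Striatum R6/2 replicate 1, against 5.66 to 5.96%. The Pacsin1 isoform ENSMUST00000114872 was 11.4% in Striatum NT replicate 4, against 20.97 to 22.8%. The Clta share of light chain reads was 73.6% in Cortex NT replicate 3, against 67.6 to 68.3%.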

How the results depend on the processing

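Of 876 values of 47 single results under alternatives, 750 kept their direction and side of the threshold, 38 lost and 3 gained the call, and 85 (of 20 results) changed sign, none of them called where the sign changed. The cause was not tested except where fewer samples or reads entered. Members called in cortex came to 0 with upper-quartile scaling and with no filter, and between regions to 2 without ISM reads and to 2 with the first run alone. Over all genes, cortex gave 95 calls without ISM reads and 325 with the length term, and striatum 637 with no filter, 39 without the runs term, 20 with the first run alone, 53 with 1-run samples alone and 34 with 2-run samples alone. The region contrast gave 1263 with the length term, 1103 without the runs term and 937 with the first run, and the interaction 7 by DESeq2, 9 with no filter and 1 without ISM reads. Isoform usage gave 28 genes in cortex by the F-test, in striatum 72 by the F-test, 9 for known isoforms, 11 with ISM and 3 without the runs term, and between regions 17 by the F-test, 87 with ISM, 9 at 20 reads or more and 10 without the runs term. Without the runs term striatum gave 1 exon, and the 16-sample genotype fits 17 genes and 10 exons.

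The log2 values that changed sign, all close to 0 in the report or not called, were these. In cortex by genotype, Cltc was at 0.0025 (upper quartile), 0.021 (no filter) and 0.065 (length term), Synj1 at 0.039 (upper quartile), 0.0025 (DESeq2 size factors), 0.018 (DESeq2), 0.058 (no filter), 0.0032 (10 reads on average), 0.059 (block) and 0.13 (length term), Cltb at 0.013 (no filter) and 0.12 (genomic reads), and Amph at 0.051 (no ISM), 0.039 (block) and 0.16 (length term). In striatum by genotype, Cltb was at 0.040 (upper quartile), 0.0090 (DESeq2 size factors), 0.0043 (DESeq2), 0.017 (no filter), 0.093 (genomic reads), 0.011 (no runs term), 0.0098 (first run) and 0.21 (1-run samples), and Snap91 at 0.022 (upper quartile), 0.0047 (DESeq2), 0.043 (genomic reads) and 0.060 (first run). Sh3gl2 was there at −0.0082 (no ISM) and −0.079 (1-run samples), Synj1 at 0.0034 (genomic reads), Cltc at −0.16 (first run) and −0.011 (1-run samples), Dnm1 at −0.56 and Amph at −0.041 (both 1-run samples) and Clta at −0.076 (2-run samples). Between regions, Bin1 was at 0.038 (DESeq2 size factors), 0.043 (DESeq2), 0.069 (no filter), 0.12 (no ISM), 0.25 (no runs term) and 0.41 (first run), Cltc at 0.017 (no filter), 0.24 (genomic reads), 0.25 (length term), 0.24 (no runs term) and 0.30 (first run), Cltb at 0.31 (genomic reads) and Amph at 0.47 (length term).

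Leaving out 1 sample gave 95 to 300 genes in cortex (members 0 to 1), 145 to 392 in striatum (members 0 to 1) and 1 to 3 for the interaction, 3 to 16, 5 to 24 and 1 to 9 genes for isoform usage in cortex, striatum and between regions, and 2 to 8, 3 to 20 and 1 to 5 exons. Over all 16 samples it gave 34 to 61 genes and 13 to 30 exons by genotype and 40 to 98 genes and 9 to 19 exons by region. Values that crossed 0 ran from −0.12 to 0.11 for Cltb, −0.24 to 0.16 for Amph, −0.19 to 0.10 for Cltc and −0.18 to 0.29 for Synj1 in cortex. In striatum they ran from −0.12 to 0.11 for Cltb, −0.18 to 0.39 for Dnm1, −0.21 to 0.22 for Sh3gl2, −0.19 to 0.12 for Snap91, −0.043 to 0.16 for Cltc and −0.25 to 0.11 for Synj1, and between regions from −0.11 to 0.14 for Bin1, −0.31 to 0.15 for Cltb and −0.20 to 0.23 for Cltc. The genotype difference of the 54-base exons ran from −0.095 to 0.20 for Clta and −0.20 to 0.28 for Cltb in cortex and from −0.038 to 0.15 for Clta in striatum, and that of the Dnm1 share of dynamin reads in striatum from −1.76 to 5.21 points.

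Whether same-numbered samples share a mouse is not stated. Their deviations from the group mean correlated at −0.57 to 0.62, both ends from pairs of Striatum NT with Striatum R6/2, which are different mice. Same-numbered samples of 1 genotype in both regions correlated at −0.23 to 0.40. These correlations cannot tell which samples share a mouse. The replicate block gave 205 genes in cortex, 182 in striatum and 2210 between regions, 7, 20 and 1 for isoform usage and 3, 15 and 0 for exons. In the 16-sample fits it gave 55 genes and 16 exons by genotype and 62 genes and 12 exons by region. Of the members' calls it ended that of the 54-base Clta exon by region and kept those of Bin1 (18-exon form 0.90, adjusted p = 0.040), the insert-free Clta isoform (1.06, 0.048) and the Cltb exon, and it changed no call of a member in the other fits. Depth limits Dnm1, Cltc, Snap91 and Synj1 mainly to their totals.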

Other observations

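Reads that TALON put in its genomic class, which had no splice chain and were left out of the levels above, were common at Cltb, with 756 in all. They made up 33.5 to 56.99% of all Cltb reads in the 4 striatal samples of 1 run, 8.97 to 18.1% in those of 2 runs and 17.3 to 34.9% in cortex. Of all reads of a sample, the genomic class made up 8.71 to 12.2%, 5.30 to 6.07% and 6.86 to 9.24% in the same order. The higher share in striatal samples of 1 run was thus not particular to Cltb.

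Over the 16 samples and 7360 genes tested, the genes whose log2 level ran most alike to a member's (Pearson's r, a description over libraries that share region, genotype and depth) were Stmn3 for Clta (0.97), Cpne7 for Pacsin1 (0.97), Anxa6 for Bin1 (0.95), Nsf for Sh3gl2 (0.95), Wrnip1 for Amph (0.94), Atp6v0d1 for Dnm1 (0.92), Fam135a for Synj1 (0.92), Zcchc12 for Cltc (0.91), Dync2h1 for Snap91 (0.86) and Rap2a for Cltb (0.85).

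Counted over all complete Bin1 reads, the number of exons had separate peaks, with 707 reads of 13 exons, 455 of 14, 435 of 18 and 153 of 19. Forms of 17 exons or more made up 37.1% ± 1.82 in Cortex NT, 49.8% ± 4.44 in Cortex R6/2, 20.4% ± 10.6 in Striatum NT and 34.2% ± 7.20 in Striatum R6/2 (SD, n = 4 each), given as a description, since the boundary was set after the numbers were seen.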
